A study of Mus musculus with 27 samples.

Results

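The genes described here are 10 brakes on MAP kinase signalling that were measured in 3T3-L1 cells during the first hours of fat cell formation. They are the dual-specificity phosphatase genes Dusp1, Dusp4, Dusp5, Dusp6, Dusp10, Dusp14 and Dusp16 and the Sprouty genes Spry1, Spry2 and Spry4. They were chosen by the gene symbol of their probe sets on a mouse Affymetrix gene array, and each of the 10 had 1 probe set among the 19938 genes tested. 3T3-L1 is a line of mouse fibroblasts whose confluent cultures become fat cells after a hormone mixture is added.

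The series held 27 arrays in 9 groups of 3, which the series text calls biological triplicates. ISL1 cells, which carried Flag-ISL1, a tagged LIM homeodomain transcription factor, were sampled at 0 and 48 h. Cells with the empty pMIG vector were sampled at 0, 0.5, 1, 2, 4, 8 and 48 h. All cells were confluent for 2 days before induction, and the 0 h cells received no mixture. The medium of all groups, those of 0 h included, held 10% fetal calf serum. From 0.5 h on, it also held 350 nM insulin, 400 nM biotin, 250 nM of the glucocorticoid dexamethasone and 0.5 mM isobutylmethylxanthine, which raises cAMP by blocking its breakdown. The agents were given together and no time-matched cells without them were analysed here, so the effects of the single agents, of fresh serum and of time cannot be told apart. The 0 h, the 0.5 to 8 h and the 48 h arrays fall into separate runs of sample numbers. The labels do not say whether these sets were processed apart, and any such difference cannot be told apart from time.

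MAP kinase phosphatases remove the phosphates that activate ERK, JNK and p38, the last kinases of the MAP kinase cascades. Many of their genes are themselves switched on by these cascades, which makes them negative feedback regulators. Sprouty proteins act further up and dampen the signal from receptor tyrosine kinases to Ras and ERK. In 3T3-L1 cells the mixture is known to activate ERK early, and ERK activity has to fall again for the later adipocyte programme, a step in which the product of Dusp1 has been studied.

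Levels are log2 intensities, and changes are log2 differences ± their standard error in the limma model, with 3 arrays in each group, so that a difference of 1 is a 2-fold change. A gene was called changed when its Benjamini-Hochberg adjusted p in limma, over all 19938 genes, was under 0.05. Levels of different probe sets are not on a common scale and were not set against each other. In these bulk samples, fewer cells with a transcript and less RNA per cell cannot be told apart. The 9 measured preadipocyte and fibroblast markers averaged between 11.90 and 11.93 in the vector arrays at 8 h, against 12.51 to 12.59 at 0 h, and 7 of them were called lower (21.9% of all genes). The 10 fat cell markers averaged between 10.19 and 10.32 at 8 h, against 10.65 to 10.81 at 0 h, with 9 called lower (21.9% of all genes). The 7 macrophage and blood cell markers were highest at 4 h, with means between 8.10 and 8.11, against 7.78 to 7.85 at 0 h, 2 being called higher and 1 lower (17.3% and 22.7% of all genes). The part of these markers in the changes up to 8 h was not tested. The 6 endothelial markers averaged between 7.07 and 7.51 across the 18 vector arrays up to 8 h. The Isl1 probe set averaged 12.62 ± 0.018 in ISL1 cells and 7.34 ± 0.157 in vector cells at 0 h (SD, n = 3 arrays each). At 48 h it went against the labels, with 7.65 ± 0.306 in the group labelled ISL1, against 12.76 ± 0.036 in the group labelled vector (SD, n = 3 each). All 48 h groups are therefore named as labelled.

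In vector cells the group moved early and mostly upward. The 10 genes were chosen with earlier results of these data known, so their counts beside the shares of all genes are a description. At 0.5 h 6 of the 10 genes had risen and none had fallen (0.777% of all genes were called higher and 0.502% lower, 1.28% in all), and at 1 h 9 had risen (2.78% higher, 4.29% lower, 7.07% in all). At 2 h 8 were higher and Dusp16 was lower than at 0 h (10.9% of all genes higher, 17.5% lower, 28.3% in all). At 4 h 7 were higher and 2 lower (17.3% and 22.7%, 40.1% in all), and at 8 h 6 were higher and 3 lower (24.2% and 21.9%, 46.1% in all). The median change of the 10 genes was 0.71 at 0.5 h, 1.28 at 1 h, 1.54 at 2 h, 1.63 at 4 h and 0.89 at 8 h, while that of all genes stayed between -0.02 and 0.07. A limma F test over the 5 times against 0 h called all 10 genes (51.7% of all genes). Of the 19938 absolute changes at 0.5 h, that of Dusp1 ranked 8th, Dusp6 17th, Dusp5 23rd, Spry2 24th, Spry4 74th and Dusp4 168th.

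**Figure D1:**
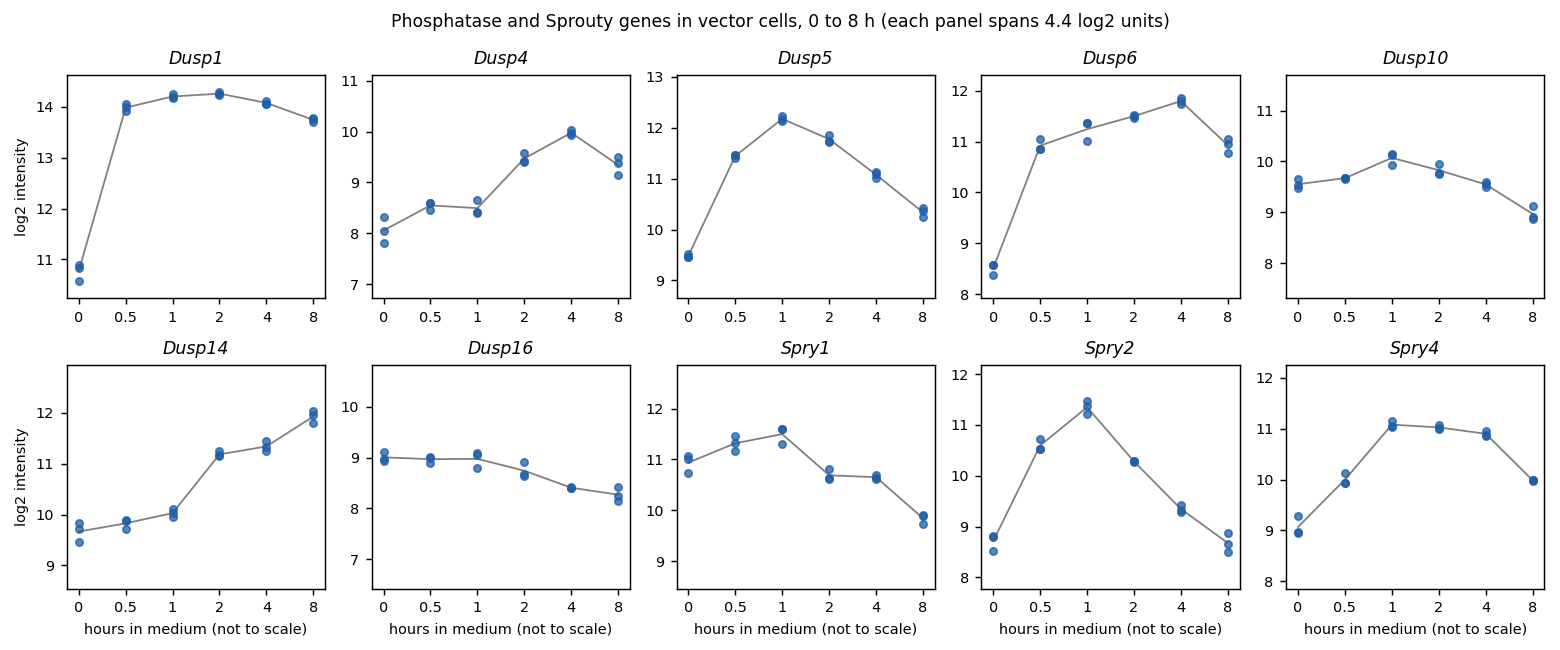
Log2 intensity of each of the 10 genes in the 18 vector arrays from 0 to 8 h, with a panel for each gene. Points are arrays, lines join the means of 3 arrays, the times are evenly spaced and not to scale, and every panel spans the same number of log2 units. Dusp1, Dusp5, Dusp6 and Spry2 climbed steeply by 0.5 h, Dusp4 and Dusp14 climbed between 1 and 2 h, and Dusp16 declined after 1 h.

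The nuclear inducible phosphatases are Dusp1, whose product acts on p38, JNK and ERK, Dusp4, which acts on ERK and JNK, and Dusp5, which is selective for ERK. The promoters of Dusp1 and Dusp5 are shown because the search of the 250 bases before the annotated start found motifs of factors activated by cAMP and serum in them. The windows come from RefSeq, build GRCm38.p6, and were searched for 8 of the 10 genes, those of Dusp4 and Spry4 not being analysed here. Capitals mark matches to the cAMP response element TGACGTCA or its shorter form TGACG, searched on both strands, and, in Dusp5, to the CArG box of the serum response element. The Dusp1 window is chr17:26508473-26508722 (minus strand) and that of Dusp5 is chr19:53528895-53529144 (plus strand).
Dusp1: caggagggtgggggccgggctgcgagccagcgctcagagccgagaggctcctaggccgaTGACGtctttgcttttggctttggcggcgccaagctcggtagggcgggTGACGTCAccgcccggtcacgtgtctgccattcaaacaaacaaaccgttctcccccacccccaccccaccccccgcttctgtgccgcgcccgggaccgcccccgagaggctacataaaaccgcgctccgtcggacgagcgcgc
Dusp5: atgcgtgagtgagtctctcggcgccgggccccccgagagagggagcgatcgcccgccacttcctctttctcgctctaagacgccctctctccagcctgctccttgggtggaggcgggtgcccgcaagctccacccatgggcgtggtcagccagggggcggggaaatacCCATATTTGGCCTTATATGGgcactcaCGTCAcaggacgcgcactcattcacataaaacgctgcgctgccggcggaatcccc
The full TGACGTCA in Dusp1 lay 143 to 136 bases before the start. It was found in 1.62% of the 27025 promoter windows of this length searched, and in 1 of the 8 here. The short form, which also matches inside the full element, was found in Dusp1, Dusp5 and Dusp16, and in 17.9% of all windows. The adjoining CArG boxes of Dusp5 lay 82 to 73 and 72 to 63 bases before the start, and 1.4% of all windows held at least 1. The ETS core CCGGAA was found in Dusp14 (12.2% of all windows). The AP-1 site TGANTCA (6.87%), the glucocorticoid receptor motif TGTTCT (16.2%) and the TATA box TATAAA (13.0%) had 0 matches in the 8 windows. The windows of Dusp6 and Spry2, which also rose by 0.5 h, held none of the motifs searched. Dusp16, which held the short form, was never called higher up to 8 h. These are letter matches in a short window, and their part in the changes was not tested.

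Dusp1 had the largest log2 rise of the 10 genes at each time up to 8 h, with Dusp6 close behind at 4 h. The vector arrays of Dusp1 read 10.90, 10.82 and 10.58 at 0 h, 13.99, 13.91 and 14.05 at 0.5 h, 14.19, 14.25 and 14.17 at 1 h, 14.29, 14.25 and 14.24 at 2 h, 14.05, 14.11 and 14.06 at 4 h and 13.76, 13.70 and 13.77 at 8 h. Every array from 0.5 h on lay above every 0 h array by a wide margin, and the arrays of 0.5 to 4 h lay within a narrow band. This band lay near the highest value of any probe set, 14.85, and whether that narrowed the differences was not tested. Dusp1 rose by 3.22 ± 0.074 at 0.5 h (9.29-fold, limma adjusted p = 5.68e-21), and its largest difference was 3.49 ± 0.074 at 2 h (11.25-fold, adjusted p = 3.86e-22). The neighbouring times did not differ by the test, with adjusted p = 0.131 for 1 h over 0.5 h, 0.724 for 2 h over 1 h and 0.0694 for 4 h over 2 h. This depended on the setting, since 4 h was called lower than 2 h under 5 alternatives (adjusted p = 0.00708 to 0.0401), and 1 h higher than 0.5 h with a trended robust prior or with array weights (adjusted p = 0.0214 and 0.0168). It was lower at 8 h than at 4 h by 0.33 on the log2 scale (-0.33 ± 0.074, adjusted p = 0.00115), and 85.2% of its largest log2 rise was still present at 8 h, with 83.95 to 86.03% over the 3 arrays of 8 h.

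Dusp5 was highest at 1 h and declined at each later step. In the 3 vector arrays of each time, Dusp5 read 9.52, 9.47 and 9.47 at 0 h, 11.47, 11.40 and 11.47 at 0.5 h, 12.13, 12.23 and 12.17 at 1 h, 11.74, 11.72 and 11.87 at 2 h, 11.02, 11.13 and 11.08 at 4 h and 10.42, 10.36 and 10.24 at 8 h. The groups of 3 arrays did not overlap at any step, climbing to 1 h and then descending. It rose by 1.96 ± 0.062 at 0.5 h (3.90-fold, limma adjusted p = 3.88e-18) and by 2.69 ± 0.062 at 1 h (6.46-fold, adjusted p = 3.23e-21). It then fell by 0.40 between 1 and 2 h, by 0.70 between 2 and 4 h and by 0.74 between 4 and 8 h, each with a standard error of 0.062 and adjusted p = 1.94e-05, 2.75e-09 and 1.2e-09. At 8 h 31.8% of its largest log2 rise was present (28.02 to 34.9% over the arrays).

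Dusp4 followed later. Its vector arrays read 8.32, 8.04 and 7.81 at 0 h, 8.45, 8.61 and 8.59 at 0.5 h, 8.43, 8.41 and 8.65 at 1 h, 9.40, 9.43 and 9.58 at 2 h, 9.97, 9.93 and 10.03 at 4 h and 9.38, 9.51 and 9.14 at 8 h. The 0.5 and 1 h arrays overlapped with each other and lay just above the 0 h arrays, and the main step came between 1 and 2 h. It was 0.98 ± 0.109 higher at 2 h than at 1 h (limma adjusted p = 1.23e-07), and its largest difference from 0 h was 1.92 ± 0.109 at 4 h (3.79-fold, adjusted p = 8.78e-14). At 8 h 67.0% of that rise was present, and 8 and 2 h did not differ by the test (-0.13, adjusted p = 0.397). The early difference of 0.49 ± 0.109 at 0.5 h (adjusted p = 0.0124) was lost when vector 0 h replicate 2 or 3 or 0.5 h replicate 2 or 3 was left out, with adjusted p between 0.0579 and 0.186. That of 0.44 ± 0.109 at 1 h (adjusted p = 0.00974) was lost without 0 h replicate 3 or 1 h replicate 3 (adjusted p = 0.115 and 0.0831) and in a fit of the compared groups only (adjusted p = 0.0608).

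Dusp6 encodes the cytoplasmic phosphatase that is selective for ERK, and Dusp14 encodes a small phosphatase that lacks the MAP kinase-binding domain of the others. The 3 vector arrays of Dusp6 read 8.57, 8.58 and 8.37 at 0 h, 10.86, 10.85 and 11.05 at 0.5 h, 11.00, 11.37 and 11.36 at 1 h, 11.53, 11.47 and 11.50 at 2 h, 11.74, 11.86 and 11.79 at 4 h and 10.78, 11.05 and 10.95 at 8 h. All arrays from 0.5 h on lay far above the 0 h arrays, with the 4 h arrays highest. Dusp6 rose by 2.41 ± 0.092 at 0.5 h (5.32-fold, limma adjusted p = 2.35e-16) and by 3.29 ± 0.092 at 4 h (9.77-fold, adjusted p = 7.91e-20). The steps between were small, 0.32 ± 0.092 for 1 h over 0.5 h (adjusted p = 0.0488), 0.26 ± 0.092 for 2 h over 1 h (adjusted p = 0.0511) and 0.30 ± 0.092 for 4 h over 2 h (adjusted p = 0.0158). The first of these was lost without 0.5 h replicate 1 or 2 or 1 h replicate 2 or 3 (adjusted p = 0.189 to 0.266), and under 5 other alternatives (adjusted p = 0.0502 to 0.304). The second passed without 1 h replicate 2 or 3 (adjusted p = 0.0299 and 0.033) and under 4 other alternatives (adjusted p = 0.0115 to 0.0293). The last was lost without replicate 2 of 2 h or of 4 h (adjusted p = 0.05 and 0.0711) and after median centring (adjusted p = 0.0536). It was lower at 8 h than at 4 h by 0.87 on the log2 scale (-0.87 ± 0.092, adjusted p = 6.69e-08), with 73.6% of its largest log2 rise present, and 8 h did not differ from 0.5 h by the test (0.01, adjusted p = 0.96).

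Dusp14 was the only one of the 10 genes whose highest vector mean up to 8 h was at 8 h. Dusp14 read 9.72, 9.83 and 9.46 at 0 h, 9.89, 9.87 and 9.72 at 0.5 h, 9.96, 10.03 and 10.10 at 1 h, 11.14, 11.25 and 11.16 at 2 h, 11.33, 11.24 and 11.45 at 4 h and 11.80, 12.04 and 11.95 at 8 h. The arrays of 2 h and later lay above all earlier arrays, and those of 8 h above all others. It was 1.15 ± 0.089 higher at 2 h than at 1 h (limma adjusted p = 2.04e-10) and 0.59 ± 0.089 higher at 8 h than at 4 h (adjusted p = 1.36e-05), when the 8 other called genes were lower (13.7% of all genes were higher and 10.2% lower in that step, 23.9% in all). Its difference from 0 h was 2.26 ± 0.089 at 8 h (4.80-fold, adjusted p = 5.89e-17). The small difference of 0.36 ± 0.089 at 1 h (adjusted p = 0.00846) was lost without 0 h replicate 3 or 1 h replicate 3 (adjusted p = 0.105 and 0.0533) and in a fit of the compared groups only (adjusted p = 0.067).

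**Figure D2:**
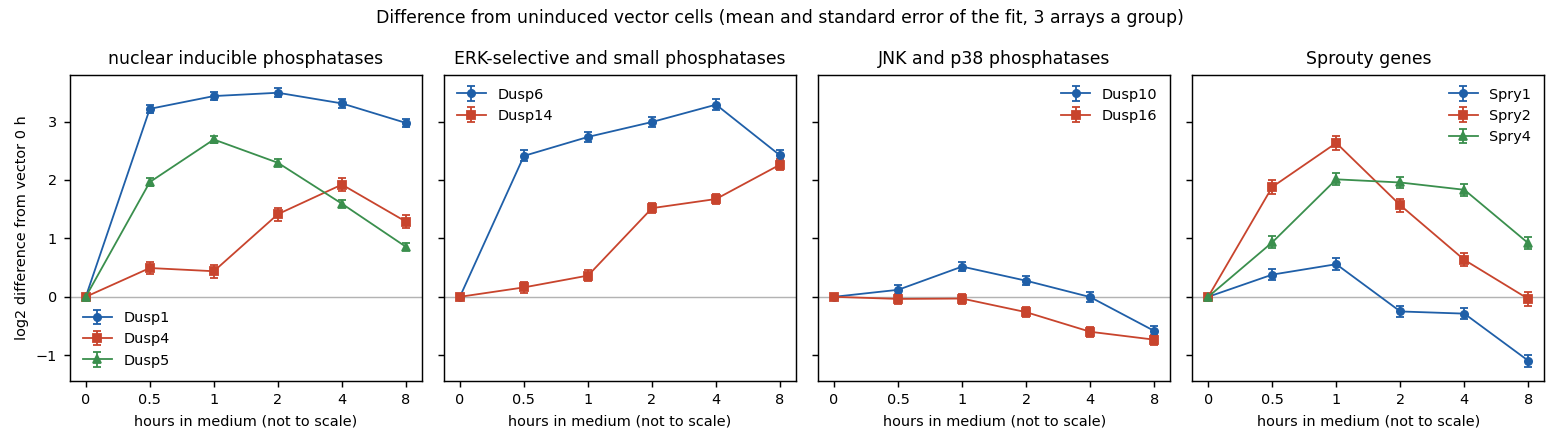
Log2 difference of each gene from vector cells at 0 h, over the evenly spaced times 0 to 8 h, with genes grouped by the role of their products. Points are means and bars the standard error of the fit with 3 arrays a group. Dusp1 and Dusp6 lay above 2 from 0.5 h to 8 h, and Dusp16 was never called higher. Dusp5, Dusp10, Spry1, Spry2 and Spry4 had their highest mean at 1 h. Spry4 did not differ by the test between 1, 2 and 4 h.

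Dusp10 and Dusp16 encode phosphatases that prefer JNK and p38, and both ended lower than they began. The 3 vector arrays of Dusp10 read 9.65, 9.53 and 9.47 at 0 h, 9.68, 9.68 and 9.66 at 0.5 h, 9.93, 10.12 and 10.16 at 1 h, 9.75, 9.78 and 9.95 at 2 h, 9.55, 9.60 and 9.49 at 4 h and 8.86, 9.13 and 8.91 at 8 h. They were slightly raised at 1 h and lowest at 8 h, and at 4 h they overlapped with 0 h. Dusp10 rose by 0.52 ± 0.081 at 1 h (1.43-fold, limma adjusted p = 6.11e-05) and was 0.28 ± 0.081 higher at 2 h (adjusted p = 0.0108), a call lost without 0 h replicate 3 or 2 h replicate 3 (adjusted p = 0.0641 and 0.0826). At 8 h it had fallen by 0.58 ± 0.081 below 0 h (-0.58, adjusted p = 1.05e-06). In 16 of 18 fits that each left out 1 vector array, 8 h was the time of its largest change, and in the other 2, without replicate 1 of 0 h or of 1 h, it was 1 h.

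The 3 vector arrays of Dusp16 read 9.11, 8.97 and 8.94 at 0 h, 8.90, 9.02 and 8.99 at 0.5 h, 8.79, 9.05 and 9.09 at 1 h, 8.64, 8.67 and 8.92 at 2 h, 8.41, 8.40 and 8.40 at 4 h and 8.25, 8.42 and 8.14 at 8 h. They overlapped with the 0 h arrays up to 1 h and lay below them from 2 h on. Dusp16 fell by 0.60 at 4 h (-0.60 ± 0.086, limma adjusted p = 1.78e-06) and by 0.73 at 8 h (-0.73 ± 0.086, adjusted p = 5.94e-08). Its difference of -0.26 ± 0.086 at 2 h (adjusted p = 0.0211) was lost without 0 h replicate 1 or 2 h replicate 1 or 2 (adjusted p = 0.0967 to 0.121), and also after median centring, renewed quantile normalization or a fit of the compared groups only (adjusted p = 0.13, 0.0668 and 0.0535). The step between 1 and 2 h, -0.23 ± 0.086 (adjusted p = 0.0562), passed without 1 h replicate 1 or 2 h replicate 3 (adjusted p = 0.0066 and 0.0102), with array weights (adjusted p = 9.6e-08) and among genes above the median level (adjusted p = 0.0257).

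Of the Sprouty genes, Spry2 gave the sharpest pulse. The vector arrays of Spry2 read 8.80, 8.52 and 8.82 at 0 h, 10.54, 10.53 and 10.72 at 0.5 h, 11.20, 11.37 and 11.47 at 1 h, 10.29, 10.26 and 10.29 at 2 h, 9.28, 9.43 and 9.33 at 4 h and 8.50, 8.87 and 8.67 at 8 h. They climbed to 1 h, descended at each later step, and at 8 h overlapped with the 0 h arrays. Spry2 rose by 1.88 ± 0.112 at 0.5 h (3.68-fold, limma adjusted p = 3.25e-12) and by 2.63 ± 0.112 at 1 h (6.20-fold, adjusted p = 9.96e-16). It then fell by 1.07 ± 0.112 to 2 h (-1.07, adjusted p = 5.04e-08), by 0.94 to 4 h (-0.94, adjusted p = 3.46e-07) and by 0.67 to 8 h (-0.67, adjusted p = 5.5e-05). At 8 h its difference from 0 h was -0.04 ± 0.112 (adjusted p = 0.811), which is -1.4% of the largest log2 rise (-8.34 to 5.99% over the arrays).

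Spry4 held a plateau where Spry2 declined. Spry4 read 9.29, 8.96 and 8.96 at 0 h, 9.94, 9.94 and 10.12 at 0.5 h, 11.05, 11.03 and 11.16 at 1 h, 11.08, 10.99 and 11.00 at 2 h, 10.95, 10.86 and 10.88 at 4 h and 9.99, 9.99 and 9.97 at 8 h. The arrays of 1, 2 and 4 h lay close together above all others, and those of 8 h lay beside those of 0.5 h. Spry4 rose by 0.93 ± 0.101 at 0.5 h (1.91-fold, limma adjusted p = 4.68e-07) and by 2.01 ± 0.101 at 1 h (4.03-fold, adjusted p = 3.07e-14). The times 1, 2 and 4 h did not differ by the test (adjusted p = 0.82 for 2 h over 1 h, 0.462 for 4 h over 2 h and 0.19 for 4 h over 1 h). It was 0.92 ± 0.101 lower at 8 h than at 4 h (-0.92, adjusted p = 1.28e-07), and 45.5% of its largest log2 rise was present at 8 h (44.79 to 46.03% over the arrays).

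Spry1 went the other way late. Its vector arrays read 11.07, 11.02 and 10.73 at 0 h, 11.17, 11.32 and 11.46 at 0.5 h, 11.31, 11.59 and 11.59 at 1 h, 10.64, 10.62 and 10.80 at 2 h, 10.64, 10.62 and 10.69 at 4 h and 9.89, 9.91 and 9.73 at 8 h. They were raised at 1 h and lay below all 0 h arrays at 4 and 8 h. Spry1 rose by 0.56 ± 0.10 at 1 h (1.47-fold, limma adjusted p = 0.000308), fell by 0.81 between 1 and 2 h (-0.81 ± 0.10, adjusted p = 6.27e-07) and was 1.10 below 0 h at 8 h (-1.10 ± 0.10, 2.14-fold lower, adjusted p = 7.05e-10). Its difference of 0.38 ± 0.10 at 0.5 h (adjusted p = 0.0624) passed without replicate 1 of 0 h or of 0.5 h (adjusted p = 0.0453 and 0.035), and that of -0.25 ± 0.10 at 2 h (adjusted p = 0.0643) passed without replicate 3 of 0 h or of 2 h (adjusted p = 0.0119 and 0.0403). Both also passed under 4 other alternatives (adjusted p = 0.00167 to 0.033 at 0.5 h and 0.0045 to 0.0339 at 2 h). The fall of 0.29 at 4 h (-0.29 ± 0.10, adjusted p = 0.0219) was lost without replicate 1 or 2 of 0 h or of 4 h (adjusted p = 0.054 to 0.123) and after median centring (adjusted p = 0.0742).

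**Figure D3:**
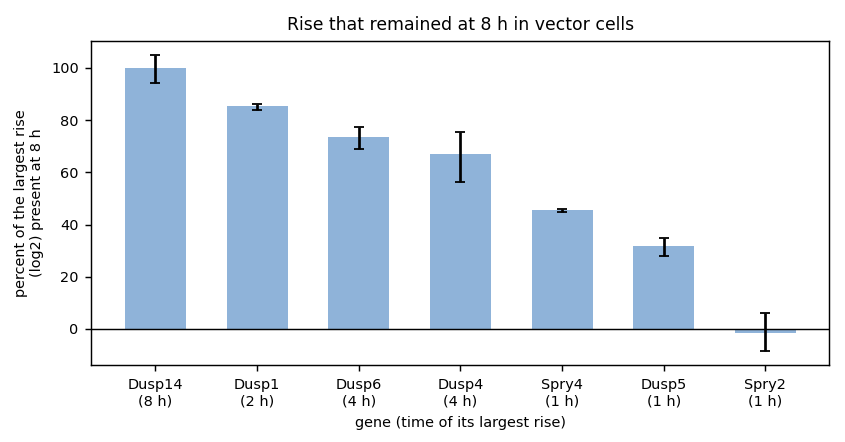
Share of the largest log2 rise still present at 8 h in vector cells for the 7 genes whose largest change was a rise, with the time of that rise under each name. Bars are group means, and whiskers run over the lowest and highest of the 3 arrays of 8 h. Dusp14 was still at its highest, Dusp1 kept 85.2%, and Spry2 stood at -1.4%.

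Step by step, 5 of the 10 genes were higher at 1 h than at 0.5 h and none lower (1.84% of all genes called higher and 1.77% lower, 3.6% in all). These were Dusp5, Dusp6, Dusp10, Spry2 and Spry4. From 1 to 2 h Dusp4 and Dusp14 were higher, while Dusp5, Dusp10, Spry1 and Spry2 were lower (9.47% of all genes higher, 11.3% lower, 20.7% in all). The Dusp10 step of -0.24 ± 0.081 (limma adjusted p = 0.0343) was lost in 4 of its 6 fits without 1 array, those without 1 h replicate 2 or 3 or 2 h replicate 1 or 2 (adjusted p = 0.124 to 0.161), and after median centring or in a fit of the compared groups only (adjusted p = 0.106 and 0.142). From 2 to 4 h Dusp4 and Dusp6 were higher and Dusp5, Dusp10, Dusp16 and Spry2 lower (13.7% of all genes higher, 14.2% lower, 28% in all), of which Dusp10 was lost without 2 h replicate 3 (adjusted p = 0.0831). From 4 to 8 h 8 genes were lower, Dusp14 was higher (13.7% of all genes higher, 10.2% lower, 23.9% in all), and Dusp16 did not pass the test (-0.14 ± 0.086, adjusted p = 0.303). Over the 10 genes and the 15 pairs of vector times up to 8 h, 119 differences passed the test, with 1.28 to 46.1% of all genes called per pair.

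Across the 18 vector arrays up to 8 h, which share their time points, Dusp1 and Dusp6 had the highest Pearson correlation of the 45 pairs (0.97), followed by Dusp5 with Spry2 (0.90) and Dusp6 with Spry4 (0.88). The lowest were Dusp14 with Dusp16 (-0.89) and with Spry1 (-0.83). Over all 27 arrays, and among 2314 genes that changed over the vector times with a range of at least 1, the genes most like Dusp1 were Nr4a1 (0.98), an immediate early nuclear receptor gene, and Dusp6 (0.97). Dusp5 was most like Ptgs2 (0.98), which encodes the inducible cyclooxygenase, and Ccn1 (0.97). Spry2 was most like Egr1 (0.96) and Il6 (0.94), Spry4 most like Net1 (0.95) and Ddit4 (0.95), and Dusp14 most like Bcl3 (0.94) and Ppm1d (0.94). Dusp4 was most like Bid (0.95) and Trmt10c (0.94), Dusp10 most like H1f2 (0.88) and Spry1 (0.86), and Spry1 most like F3 (0.88) and Tlr4 (0.88). Dusp16 had Coro2b and Ccdc122 (both 0.96), among 2315 candidates. These correlations are descriptions over arrays that share group means.

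Lists of other pathway genes were counted by the same test. Of all genes, 1.28% were called at 0.5 h, 7.07% at 1 h, 28.3% at 2 h, 40.1% at 4 h and 46.1% at 8 h. Of the other phosphatases with a MAP kinase-binding domain, Dusp2, Dusp7, Dusp8 and Dusp9, none passed the test at 0.5 h. At 1 h Dusp2 was 0.43 ± 0.102 higher (limma adjusted p = 0.00624) and Dusp7 0.21 lower (-0.21 ± 0.064, adjusted p = 0.0372). Dusp7, which encodes another ERK-directed phosphatase of the cytoplasm, was then 0.69 ± 0.064 higher at 8 h (adjusted p = 9.42e-10), and Dusp8 and Dusp9 did not pass at any time up to 8 h. Of 17 atypical and other dual-specificity phosphatase genes, none passed at 0.5 or 1 h, and 3 rose and 5 fell at 8 h (24.2% of all genes higher, 21.9% lower). Dusp19 fell by 0.77 at 8 h (-0.77 ± 0.075, adjusted p = 2.06e-09) and Dusp23 by 0.47 (-0.47 ± 0.083, adjusted p = 3.54e-05).

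Of 21 further feedback inhibitors of receptor kinases, only Errfi1 passed at 0.5 and 1 h, with rises of 1.68 ± 0.058 and 2.04 ± 0.058 (limma adjusted p = 2.99e-17 and 1.98e-19). Errfi1 encodes an inhibitor of the EGF receptor. At 4 h 11 of the 21 had risen and 8 had fallen (17.3% of all genes higher, 22.7% lower), with a median of 0.19, against 0.03 for all genes. Il17rd, which encodes the FGF signalling inhibitor Sef, fell by 2.50 at 4 h (-2.50 ± 0.095, adjusted p = 2.68e-17), while Socs3, a cytokine receptor inhibitor gene, rose by 1.33 ± 0.074 (adjusted p = 7.71e-14). At 8 h 8 had risen and 10 had fallen (24.2% of all genes higher, 21.9% lower), and the Sprouty relative Spry3 was among the higher genes with 1.33 ± 0.083 (adjusted p = 4.91e-13).

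Of 23 receptor ligand genes 3 rose at 0.5 h and 4 at 1 h (0.777% and 2.78% of all genes), with none falling. Ereg and Hbegf, which encode ligands of the EGF receptor family, were 2.21 ± 0.101 and 2.24 ± 0.106 higher at 1 h (limma adjusted p = 3.93e-15 and 1.05e-14), and Ereg was 3.48 ± 0.101 higher at 2 h (adjusted p = 1.57e-19). At 8 h 5 ligand genes were higher (24.2% of all genes) and 11 lower (21.9%), with Nrg1 among the lower ones at -1.41 ± 0.059 (adjusted p = 2.38e-16). Of 21 receptor tyrosine kinase genes none passed at 0.5 h, and 7 were higher and 8 lower at 8 h (24.2% and 21.9% of all genes). Egfr, the EGF receptor gene, fell by 1.66 at 8 h (-1.66 ± 0.080, adjusted p = 2.99e-15).

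Of 15 measured genes of the ERK cascade, none passed at 0.5 or 1 h, and at 8 h 7 were higher and 5 lower (24.2% and 21.9% of all genes). Ksr1, a scaffold of the cascade, rose by 0.93 ± 0.068 at 8 h (limma adjusted p = 1.15e-11), and the adaptor gene Gab1 fell by 0.91 at 2 h (-0.91 ± 0.066, adjusted p = 2.42e-11). Of 21 genes of the JNK and p38 cascades none passed at 0.5 h, and at 4 h 11 were higher and 6 lower (17.3% and 22.7% of all genes). Among the genes of the p38 activators, Map2k3 was 1.63 ± 0.086 higher at 2 h (adjusted p = 3.27e-14) and Map2k6 1.77 lower at 4 h (-1.77 ± 0.088, adjusted p = 6.94e-15). They were not set against each other at a common time. Of 6 genes of ERK5 and the atypical MAP kinases none passed at 0.5 h, and Mapk6 was 1.32 ± 0.079 higher at 4 h (adjusted p = 2.52e-13).

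Of the 28 genes in the list named ERK response genes, 15 rose and none fell at 0.5 h (0.777% and 0.502% of all genes). At 1 h 19 rose (2.78% of all genes), and at 8 h 16 rose and 4 fell (24.2% and 21.9%). ERK activity itself was not measured here. Their median change was 0.58 at 0.5 h, 1.38 at 1 h, 1.43 at 2 h, 1.12 at 4 h and 0.38 at 8 h. Fosl1, an AP-1 subunit gene, was still 4.17 ± 0.092 higher at 8 h (limma adjusted p = 7.92e-22), as was Plaur, the urokinase receptor gene, with 2.10 ± 0.097 (adjusted p = 1.32e-15).

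**Figure D4:**
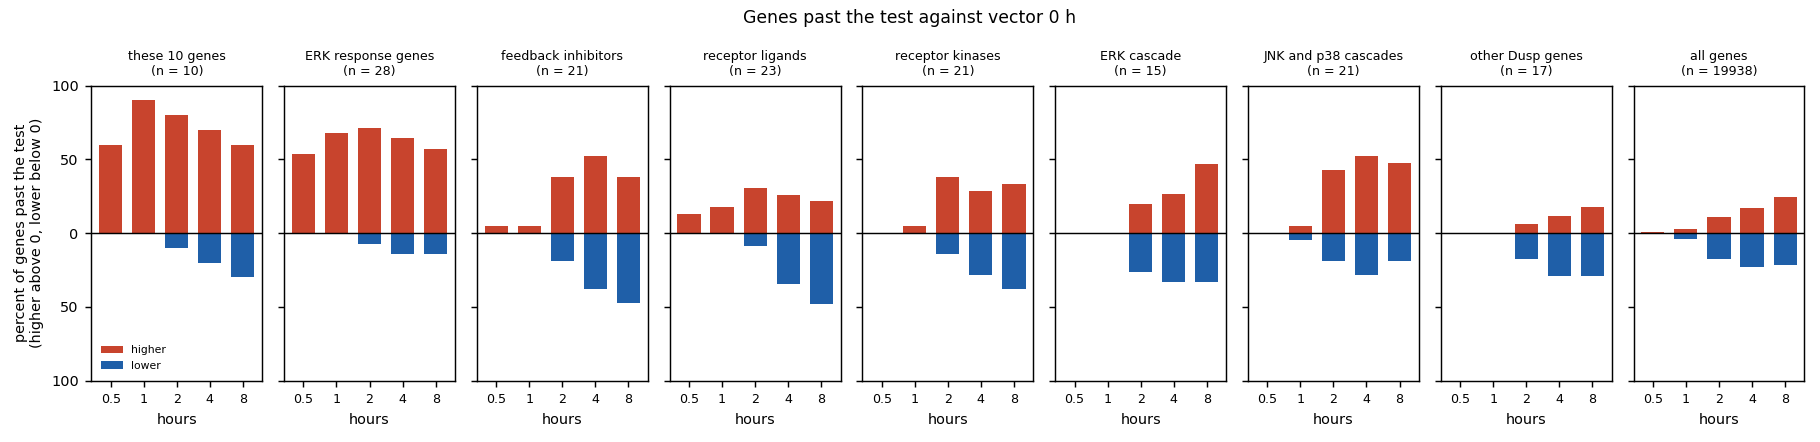
Percent of genes past the test against vector cells at 0 h, higher above the line and lower below it, at each time, for the 10 genes, 7 lists of pathway genes and all 19938 genes. At 0.5 h the bars stand at 6 of 10 for the 10 genes and 15 of 28 for the ERK response genes (1.28% of all genes). They are empty for the receptor kinases, the ERK cascade, the JNK and p38 cascades and the other Dusp genes. At this share of all genes, empty bars do not set lists of this size apart.

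Before induction, the construct was associated with differences in 9 of the 10 genes. In ISL1 cells 6 were higher and 3 lower than in vector cells (15.3% of all genes higher, 10.4% lower, 25.7% in all). The higher genes were Dusp14, Dusp6, Dusp1, Spry2, Dusp16 and Dusp5, and the lower ones were Spry1, Dusp10 and Spry4. Dusp14 had the largest difference. It read 10.93, 10.91 and 11.01 in ISL1 cells, against 9.72, 9.83 and 9.46 in vector cells, and the groups lay far apart. The difference was 1.28 ± 0.089 (2.43-fold, limma adjusted p = 1.61e-11).

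Dusp6 read 9.28, 9.17 and 9.31 in ISL1 cells, against 8.57, 8.58 and 8.37 in vector cells at 0 h, without overlap, a difference of 0.75 ± 0.092 (limma adjusted p = 4.49e-07). Dusp1 read 11.47, 11.28 and 11.18 in ISL1 cells, against 10.90, 10.82 and 10.58 in vector cells, also without overlap, a difference of 0.54 ± 0.074 (adjusted p = 2.01e-06). Spry1, which was lower, read 10.41, 10.20 and 10.15 in ISL1 cells, against 11.07, 11.02 and 10.73 in vector cells, a difference of -0.68 ± 0.10 (adjusted p = 5.49e-06). Spry1 did not overlap between the constructs either. Dusp10 and Spry4 were each 0.44 lower (-0.44 ± 0.081 and -0.44 ± 0.101, adjusted p = 0.000134 and 0.00146), and Spry2 and Dusp16 were 0.43 ± 0.112 and 0.34 ± 0.086 higher (adjusted p = 0.00436 and 0.00383). The Dusp5 difference of 0.18 ± 0.062 (adjusted p = 0.0293) was lost without vector 0 h replicate 2 or 3 or ISL1 0 h replicate 1 or 2 (adjusted p = 0.0833 to 0.106). It was also lost after median centring or renewed quantile normalization (adjusted p = 0.0764 and 0.178). Dusp4 did not pass (-0.28 ± 0.109, adjusted p = 0.0635), but did without vector 0 h replicate 3 (adjusted p = 0.00866), with array weights (adjusted p = 0.0391) and among genes above the median level (adjusted p = 0.0347).

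Fat cell markers moved with the construct. All 10 of the list were lower in ISL1 cells at 0 h, where their mean lay between 8.53 and 8.61 over the arrays, against 10.65 to 10.81 in vector cells. Of 7 macrophage and blood cell markers 2 were lower and none higher, with means between 6.94 and 7.04 in ISL1 cells, against 7.78 to 7.85 in vector cells, and 6 of 9 fibroblast markers were lower, with 12.13 to 12.18 against 12.51 to 12.59. Their part in the differences of the phosphatase and Sprouty genes was not tested. Of the ERK response genes 7 were higher and 3 lower in ISL1 cells, and Egr1 was 0.88 ± 0.081 higher (limma adjusted p = 2.55e-09). Of the 21 JNK and p38 cascade genes 8 were higher and none lower. Beside these list counts, 15.3% of all genes were higher and 10.4% lower in ISL1 cells at 0 h.

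At 48 h all 10 genes differed between the arrays labelled ISL1 and those labelled vector, 4 being higher and 6 lower in those labelled ISL1 (14% of all genes higher, 13.8% lower, 27.9% in all). Dusp14 read 10.29, 10.46 and 10.43 in the arrays labelled ISL1 48 h, against 11.53, 11.51 and 11.76 in those labelled vector 48 h. The groups did not overlap, and the difference was -1.20 ± 0.089 (limma adjusted p = 4.31e-11). Dusp6 read 9.83, 9.77 and 9.84 in the arrays labelled ISL1 48 h, against 10.81, 10.59 and 10.86 in those labelled vector 48 h, a difference of -0.95 ± 0.092 (adjusted p = 7.81e-09).

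Spry2 read 9.10, 8.61 and 8.88 in the arrays labelled ISL1 48 h, against 9.94, 9.63 and 9.89 in those labelled vector 48 h. It was lower in all 3 arrays labelled ISL1, by 0.96 (-0.96 ± 0.112, limma adjusted p = 1.67e-07). Dusp4, which was higher in the arrays labelled ISL1, read 9.65, 9.63 and 9.66 in the arrays labelled ISL1 48 h, against 8.75, 8.47 and 8.78 in those labelled vector 48 h. Its difference was 0.98 ± 0.109 (adjusted p = 6.99e-08). Spry4 (0.59 ± 0.101, adjusted p = 4.67e-05), Spry1 (0.52 ± 0.10, adjusted p = 0.000185) and Dusp10 (0.40 ± 0.081, adjusted p = 0.00039) were also higher there. Dusp1 (-0.57 ± 0.074, adjusted p = 9.19e-07), Dusp16 (-0.47 ± 0.086, adjusted p = 8.88e-05) and Dusp5 (-0.31 ± 0.062, adjusted p = 0.000351) were lower. The mean of the 10 fat cell markers lay between 12.04 and 12.19 in the arrays labelled ISL1 48 h and between 10.42 and 10.60 in those labelled vector 48 h, all 10 being higher in those labelled ISL1, and their part in these differences was not tested.

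Each of the 10 genes differed at 48 h in the direction opposite to that at 0 h, as labelled, whether or not it was called at 0 h, as did 56.1% of all genes. Of all genes called at both times 57.7% did so, and 9 of the 10 genes were called at both. The difference of the ISL1 effects between the times passed the test for all 10 (12.7% of all genes higher, 16.3% lower, 29% in all), from -2.49 ± 0.126 in Dusp14 (limma adjusted p = 1.65e-14) to 1.26 ± 0.154 in Dusp4 (adjusted p = 3.36e-07). Exchanging the 48 h labels, as the Isl1 probe set reads, turns every 48 h sign, so by construction all 10 then had the same sign at both times. Of the differences of the ISL1 effects, 2 then remained past the test, Dusp4 at -0.70 (adjusted p = 0.000918) and Spry2 at 0.53 (adjusted p = 0.0142). The share of all genes with exchanged labels is not given here. Which arrays at 48 h carried the construct was not settled here beyond the Isl1 values.

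**Figure D5:**
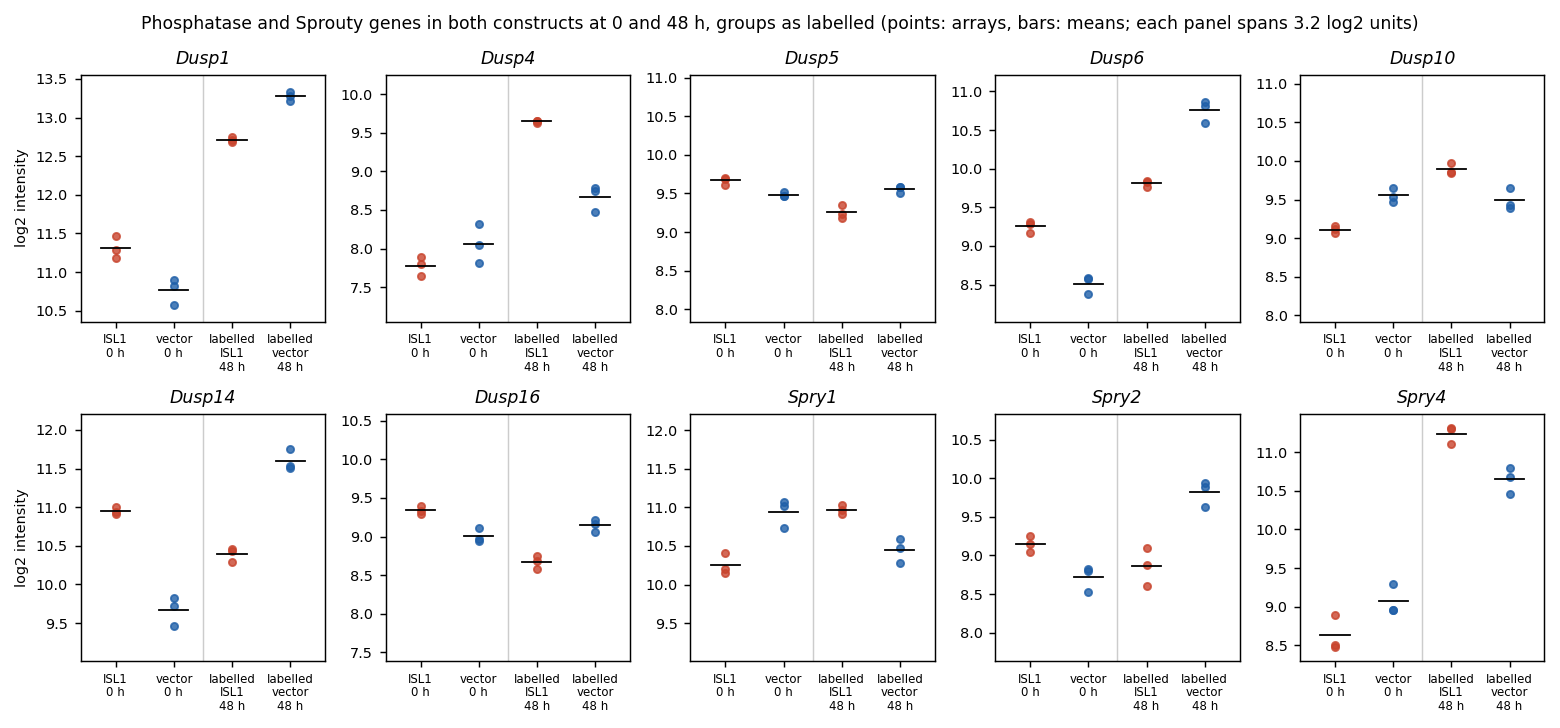
Log2 intensity of the 10 genes in ISL1 and vector cells at 0 and 48 h, groups as labelled. Points are arrays, horizontal bars are means of 3 arrays, and every panel spans the same number of log2 units. In each panel the mean labelled ISL1 lies on one side of the mean labelled vector at 0 h and on the other side at 48 h, as was so for 56.1% of all genes. Only the Dusp4 arrays at 0 h overlap, while 42.8% of all genes at 0 h and 34.5% at 48 h showed no overlap.

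Averaged over both constructs, which needs no decision on the labels, 7 of the 10 genes were higher and 2 lower at 48 h than at 0 h (23.6% of all genes higher, 23.3% lower, 46.9% in all). Spry4 and Dusp1 had the largest differences, 2.09 ± 0.071 (4.27-fold, limma adjusted p = 1.26e-18) and 1.96 ± 0.052 (3.88-fold, adjusted p = 7.4e-21), over 6 arrays at each time. Dusp6 was 1.40 ± 0.065 higher (adjusted p = 8.47e-16) and Dusp4 1.24 ± 0.077 (adjusted p = 3.12e-13). Dusp14, Spry2 and Dusp10 were 0.69 ± 0.063, 0.41 ± 0.079 and 0.36 ± 0.058 higher (adjusted p = 5.93e-10, 0.000103 and 7.61e-06). Dusp16 and Dusp5 were 0.26 and 0.17 lower (-0.26 ± 0.061 and -0.17 ± 0.044, adjusted p = 0.000733 and 0.00227), and Spry1 did not pass (0.11 ± 0.070, adjusted p = 0.201). Of the 28 ERK response genes 14 were higher and 9 lower, and of the 21 feedback inhibitors 6 were higher and 11 lower. All 10 fat cell markers were higher and all 9 fibroblast markers lower, and their part in these values was not tested.

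The 48 h arrays were also compared with the 0 h arrays within each construct, as labelled. In the arrays labelled vector, 6 genes were higher and 1 lower at 48 h than at 0 h (18.1% of all genes higher, 18.7% lower, 36.8% in all). Dusp1 was 2.51 ± 0.074 higher (limma adjusted p = 1.01e-19) and Dusp6 2.25 ± 0.092 (adjusted p = 1.17e-16), and Spry1 was 0.49 lower (-0.49 ± 0.10, adjusted p = 0.000249). In those labelled ISL1, 6 were higher and 4 lower (20.9% of all genes higher, 22.2% lower, 43.1% in all), with Spry4 2.61 ± 0.101 higher (adjusted p = 2.44e-17) and Dusp4 1.87 ± 0.109 (adjusted p = 1.12e-13). Dusp14 was 0.55 lower there (-0.55 ± 0.089, adjusted p = 9.32e-06), and Dusp16 0.67 lower (-0.67 ± 0.086, adjusted p = 3.19e-07). The Spry2 difference of -0.29 ± 0.112 (adjusted p = 0.0405) was lost without replicate 1 or 2 of ISL1 0 h or replicate 2 or 3 of labelled ISL1 48 h, with adjusted p between 0.0665 and 0.303 and a value of -0.16 without replicate 2 of labelled ISL1 48 h. It was also lost under 3 other alternatives (adjusted p = 0.0521 to 0.0719). With the 48 h labels exchanged, as the Isl1 probe set reads, 7 genes were higher and 0 lower in ISL1 cells at 48 h than at 0 h. Dusp14 was then 0.65 higher (adjusted p = 1.14e-06) and Spry2 0.67 higher (adjusted p = 2.28e-05). Dusp16 (-0.19, adjusted p = 0.0913), Dusp5 (-0.11, adjusted p = 0.209) and Spry1 (0.20, adjusted p = 0.148) were not called. In vector cells 6 genes were then higher and 2 lower, while Spry1 (0.030, adjusted p = 0.838) and Spry2 (0.15, adjusted p = 0.329) were not called. Shares of all genes with exchanged labels are not given here.

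Against vector cells at 8 h, 5 genes were higher and 4 lower in the arrays labelled vector 48 h (17.8% of all genes higher, 18.9% lower, 36.7% in all). The genes that had declined below 0 h by 8 h were higher again, Dusp16 by 0.88 ± 0.086, Spry1 by 0.61 ± 0.10 and Dusp10 by 0.53 ± 0.081 (limma adjusted p = 4.32e-09, 1.74e-05 and 7.46e-06). Spry2 was 1.14 ± 0.112 higher (adjusted p = 4.76e-09) and Spry4 0.66 ± 0.101 (adjusted p = 5.99e-06). Dusp5, Dusp4, Dusp1 and Dusp14 were lower by 0.78, 0.68, 0.47 and 0.33 (adjusted p = 9.84e-11, 1.27e-05, 9.92e-06 and 0.0039), the Dusp14 call being lost with array weights (-0.28, adjusted p = 0.0816), and Dusp6 did not pass (-0.17 ± 0.092, adjusted p = 0.164). With the 48 h labels exchanged, Dusp16, Spry1 and Dusp10 were again higher than at 8 h, by 0.40, 1.12 and 0.92 (adjusted p = 0.000505, 8.44e-10 and 7.78e-10). Spry2 was then not called (0.18, adjusted p = 0.27), Dusp4 was 0.30 higher than at 8 h (adjusted p = 0.0345) and Dusp6 1.12 lower (-1.12, adjusted p = 2.35e-10). Dusp14, Dusp5 and Dusp1 were then further below 8 h than as labelled, at -1.54, -1.08 and -1.03 (adjusted p = 2.07e-13, 1.64e-13 and 1.36e-11). Spry4 was 1.25 higher than at 8 h (adjusted p = 1.5e-10).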

How the data were processed

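Total RNA of 27 samples was hybridised to Affymetrix mouse gene arrays, 1 array per sample. The deposited values are log2 intensities that the authors made with RMA, per the submitters' processing notes (no version or software is given in the sources used here). The log base was read from the values, which ran from 3.35 to 14.85, and values were used as deposited.

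Of 28853 probe sets 21789 had 1 gene symbol and were used, 1621 had several and 5443 none. Of the used ones 21698 matched RefSeq by gene ID. Where a gene had several probe sets (999 genes), that with the highest mean over the arrays stood for it, giving 19938 genes. Detection calls were not used here.

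Groups came from the labels. All 27 arrays entered a single model, with a mean for each group, in limma 3.58.1 under R 4.3.3 (empirical Bayes variances, two-sided tests, Benjamini-Hochberg adjustment over the 19938 genes within each of 16 comparisons, of 15 time pairs and of an F test). The fit was tested on simulated data. The share of a rise present at 8 h is the log2 difference from 0 h at 8 h over the largest one. The number of arrays limits the precision.

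The 10 genes, the 14 lists (204 entries, 193 measured) and the tests were chosen with earlier results of these data known. Named besides the 10 genes and Isl1 are, for each gene, the 2 most correlated others and, for each list, at most 4 genes with the largest change past the test, or every gene of a list of 5 or fewer. Promoter windows came from RefSeq (GRCm38.p6). The 12 alternatives covered centring, normalization, variance prior, array weights, filters, probe set choice, a replicate block, a 2-fold minimum, fits on the compared groups only, exchanged 48 h labels and leaving out each array.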

Additional observations from a re-analysis of the deposited data

Results flagged for a closer look

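The ISL1 effect, as labelled, differed between 48 h and 0 h in all 10 genes by the interaction term of the limma fit (29% of all genes). The difference (ISL1 minus vector at labelled 48 h, minus the same at 0 h, log2) was -1.11 in Dusp1, 1.26 in Dusp4, -0.49 in Dusp5 and -1.69 in Dusp6. It was 0.84 in Dusp10, -2.49 in Dusp14 and -0.81 in Dusp16. For the Sprouty genes it was 1.20 in Spry1, -1.39 in Spry2 and 1.03 in Spry4. These values rest on 48 h labels that the Isl1 probe set goes against, and with the labels exchanged 8 of the 10 no longer passed the test. The share of all genes with exchanged labels is not given here.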

How the results depend on the processing

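Of the 160 differences (10 genes, 16 comparisons), none that passed the test changed direction under the alternatives other than the label exchange, and leaving out each array gave the same call in 1035 of 1080 fits. The same call was kept by 147 of 160 with array weights, 153 on the compared groups only, 153 after renewed quantile normalization, 154 after median centring, 154 with genes above the median level, 155 with a trended robust prior and 159 each with the lowest probe set per gene and with all probe sets. Leaving out 1 array, the called genes against 0 h numbered 5 to 7 at 0.5 h, 7 to 9 at 1 h, and 8 to 9 for ISL1 over vector at 0 h, and the called pairs 114 to 123. With at least a 2-fold change required, 5 genes remained at 1 h and 5 at 8 h, 1 for 1 h over 0.5 h, 2 for 2 h over 1 h, 0 for 4 h over 2 h and 0 for 8 h over 4 h. It left 1 for ISL1 over vector at 0 h, 1 for the labelled 48 h groups, 3 for labelled ISL1 48 h over 0 h, 4 for the mean of the 48 h groups, 1 for labelled vector 48 h over 8 h, and 52 of the pairs. Array weights gave 8 for 1 h over 0.5 h. The shares of all genes under these settings are not given here, so these counts were not set against them.

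Exchanging the 48 h labels reduced the called differences of the ISL1 effects to 2. By construction the 48 h differences then read 0.57 (Dusp1), -0.98 (Dusp4), 0.31 (Dusp5), 0.95 (Dusp6), -0.40 (Dusp10), 1.20 (Dusp14), 0.47 (Dusp16), -0.52 (Spry1), 0.96 (Spry2) and -0.59 (Spry4). Vector 48 h over 0 h turned to -0.23 (Dusp5), 0.34 (Dusp10), -0.33 (Dusp16) and 0.030 (Spry1), ISL1 48 h over 0 h to 0.65 (Dusp14) and 0.67 (Spry2), and vector 48 h over 8 h to 0.30 (Dusp4). The differences of effects turned to 0.025 (Dusp1), -0.70 (Dusp4), 0.12 (Dusp5), 0.20 (Dusp6), 0.14 (Dusp16), 0.53 (Spry2) and -0.15 (Spry4).

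Same-numbered arrays deviated together, with all 3 correlations over 0.1, in 4 of 36 pairs of groups, so the numbers were not taken as pairs. These were vector 0.5 with 1 h, 0.5 with 4 h and 1 with 4 h, and the 48 h groups with each other. Each lies within a run of sample numbers, and other pairs within the same runs did not reach the limit. With the replicate number as a block, 159 of 160 calls were the same, and Dusp6 at 1 h over 0.5 h was lost (0.32, adjusted p = 0.0556).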
